A study of Mus musculus with 10 samples.

Results

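The small nuclear and nucleolar RNAs of mouse prostate luminal cells are described here: every gene whose array row carries a single gene symbol beginning with Rnu, Snord, Snora or Scarna and then a digit. Of 145 rows that name such a gene, 98 name only one, and 47 name several and were left out, the Snord115 and Snord116 families among them. The 98 rows stand for 82 genes, each read from its row with the highest mean over the 10 arrays. Rnu3b1, Rnu3b2 and Rnu3b3 have identical values and were counted once, which leaves 80 distinct members among 30142 genes tested. They comprise 9 spliceosomal small nuclear RNAs, 3 forms of U3, 44 other C/D box snoRNAs, 18 H/ACA box snoRNAs and 6 small Cajal body RNAs.

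Spliceosomal small nuclear RNAs form the core of the particles that remove introns: U1 recognises the start of the intron, U2 the branch point, U6 sits in the catalytic centre, and U11 and U12 serve the minor class of introns. C/D box snoRNAs mostly guide ribose methylation of ribosomal RNA and H/ACA box snoRNAs guide pseudouridylation, while U3, U8, U14 and U17 are needed to cut the ribosomal RNA precursor. Most mammalian snoRNAs are released from introns of host genes, whereas U1, U2, U3, U8 and U13 are made from genes of their own. The prostate luminal cell secretes the seminal fluid proteins of the gland, and its size and secretion depend on androgen.

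The study sorted luminal epithelial cells from prostates of male Hoxb13-rtTA|TetO-H2BGFP mice and hybridised their total RNA to whole-transcript microarrays, 1 array per sample. Intact samples (3 arrays) came from untreated mice. For castrated and regenerated samples alike, the age at orchiectomy was 12 weeks and regression lasted 6 weeks. For the regenerated samples this duration is read from the study's description of its regression and regeneration cycle. Castrated samples (3 arrays) were collected after regression, without testosterone. Regenerated samples (4 arrays) came from mice that then received testosterone for 4 weeks from an implant under the skin. Every mouse, the intact ones included, drank doxycycline at 2 mg/ml for 1 week, which switches on a nuclear GFP wherever the Hoxb13 promoter drives the transactivator. Cells were gated as GFP+, CD24+, intermediate for CD49f and negative for CD45, F4/80 and CD11b. No group was castrated and kept without testosterone for as long as the regenerated mice, so testosterone and the added time cannot be told apart. The titles call the samples biological replicates and do not say whether a sample is 1 animal or a pool, so each p-value measures the spread between these samples.

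The values are log2 intensities that the authors normalised with RMA, and levels of different genes were not compared, because each probe set binds with its own strength. Background control rows on the array had values of up to 6.4. Of the 80 distinct members, 49 had a mean above that value, and in 27 no group mean exceeded it. The luminal keratin Krt8 was high in all 10 arrays (14.73 to 17.52), and so were Krt18 and Cd24a, and these 3 were higher in castrated than in intact cells. Hoxb13, whose promoter drives the GFP used for sorting, was lower in castrated than in intact cells (7.74 ± 0.20 against 10.39 ± 0.17, SD, n = 3 each; difference -2.65 ± 0.42, limma adjusted p = 0.00416). It was 1.74 ± 0.39 higher in regenerated than in castrated cells (limma adjusted p = 0.0321). All 3 basal, all 4 stromal and 3 of the 4 leukocyte markers were within the background, the pan-leukocyte gene Ptprc (CD45) at 3.55 to 3.76. The exception was Cd3e, a T cell receptor subunit, which was 6.56, 5.73, 5.94 and 7.38 in regenerated arrays, against 11.32, 11.76 and 8.26 in castrated and 7.58, 8.18 and 5.40 in intact arrays. Regenerated replicate 4 stood apart from the other regenerated arrays: its score on the first principal component was 3.0, against -31.0 to -23.2 in regenerated replicates 1 to 3, -47.6 to -40.5 in intact arrays and 64.1 to 75.5 in castrated arrays. It had the lowest Hoxb13 of the regenerated arrays, 8.26 against 9.61 to 10.27 in replicates 1 to 3. All 3 seminal vesicle markers measured were highest there among the regenerated arrays: Svs5 was 15.59 against 5.09 to 11.64, Svs2 was 12.91 against 5.14 to 10.60, and Svs4 was 8.91 against 5.32 to 6.76. Their mean was 12.47 in regenerated replicate 4 and 5.18 to 9.67 in replicates 1 to 3, against 5.32 to 5.73 in castrated and 7.66 to 12.55 in intact arrays. The part of these differences in the results below was not tested. For the 80 members, the counts past the adjusted test and the median group differences that include this array are given with and without it.

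**Figure D1:**
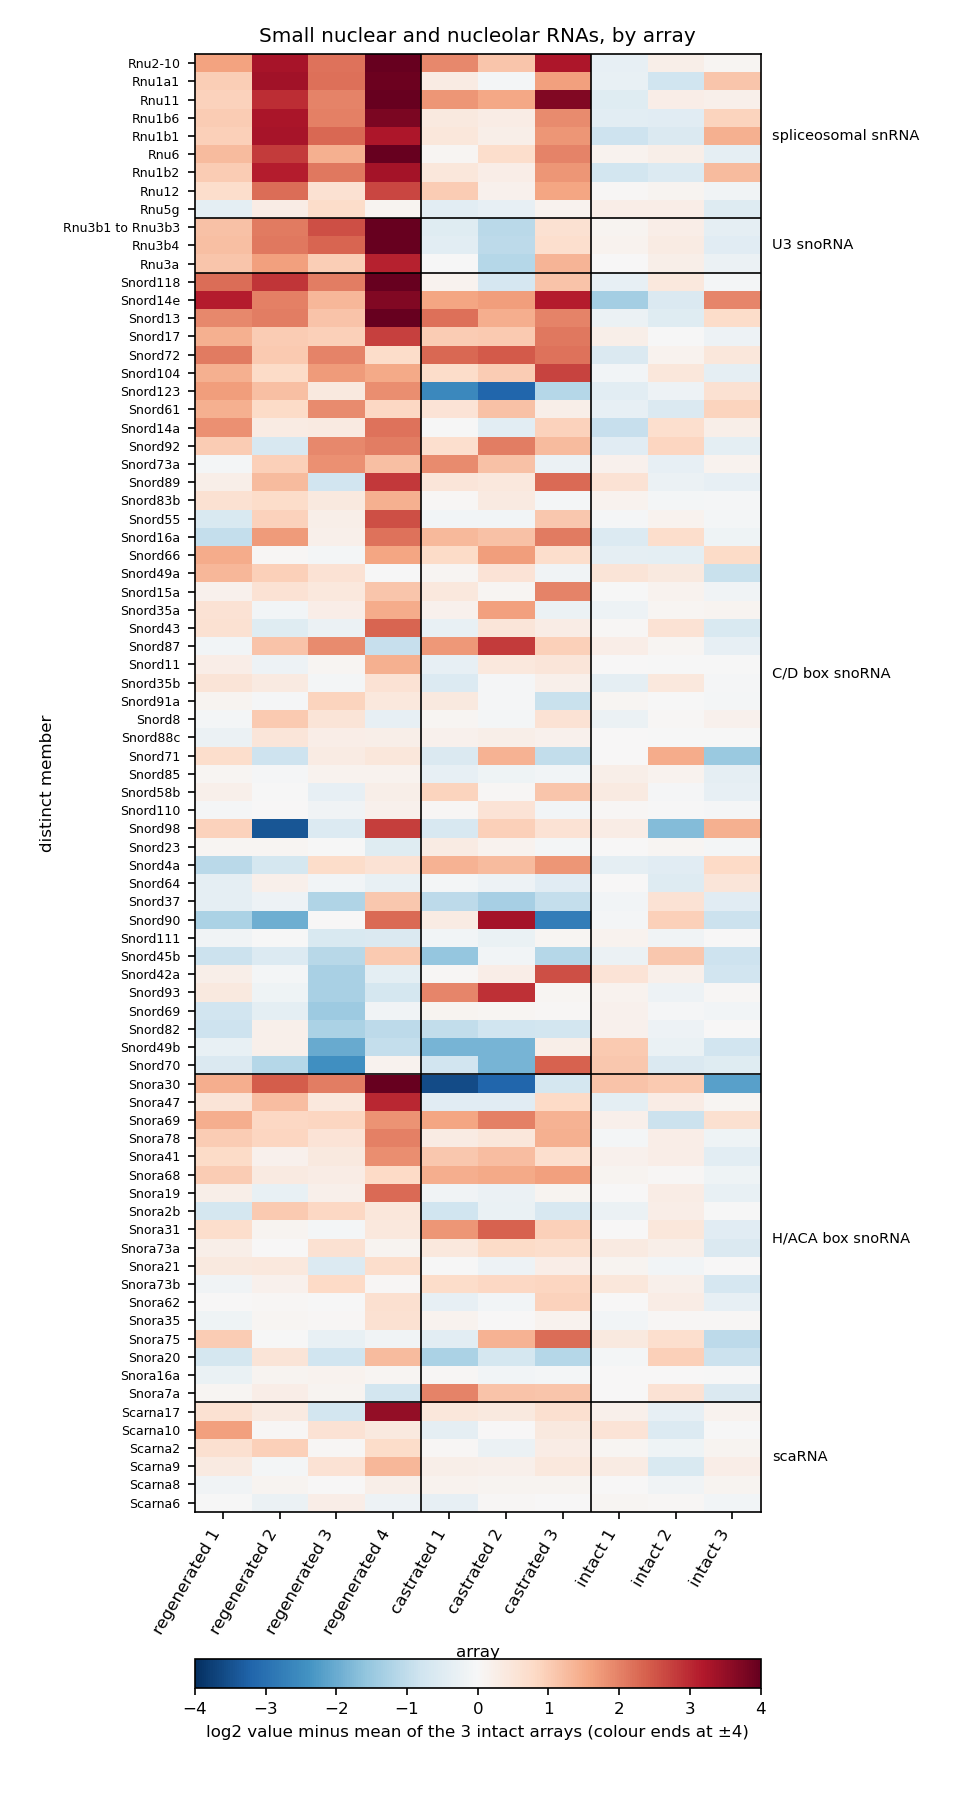
Each row is 1 of the 80 distinct members, grouped by class, each column 1 array, and the colour is its log2 value minus the mean of the 3 intact arrays, with the colour scale ending at 4 either way. The column of regenerated replicate 4 is the reddest among the small nuclear RNAs and U3, and castrated replicate 3 is the reddest of the castrated columns in the same rows.

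The spread of these genes within groups was wide. The median residual SD of the members was 0.69 on the log2 scale, against 0.19 over all genes tested, and 78 of the 80 lay above the median of all genes. The sets were not matched for level, with a median of 7.4 for the members and 4.49 for all genes, and values near the background are compressed. The residual SD also includes regenerated replicate 4. The part of either in the wider spread was not tested.

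Castration was the first comparison. Castrated cells had 6 of the 80 members past the test (7.5%; limma, Benjamini-Hochberg adjusted p under 0.05 over all genes), where 8.01% of all genes tested passed. The share of members was therefore near that of all genes. With only genes whose mean lay above the 95th percentile of the background rows, 7 of 67 members passed, against 20.5% of genes. Among these brighter genes the members were thus called less often. Snord72, Snora31, Snora69, Snora68 and Snora7a were higher in castrated than in intact cells, 5 of 80 where 4.82% of all genes were called higher. Snord123 was lower, 1 of 80 where 3.19% were called lower. The median difference of the 80 members was 0.25 on the log2 scale, against 0.04 over all genes. Groups did not overlap in 20 members with castrated higher (25.0%, against 17.4% of all genes) and in 4 with castrated lower (5.0%, against 11.5%). The number of members that passed depended on single arrays: it was 12 without regenerated replicate 4, and 2 without intact replicate 1, castrated replicate 1 or castrated replicate 2. The share of all genes moved as well, to 10.9% in the first of these fits and 3.38%, 6.25% and 4.89% in the others. The mean of the 4 leukocyte markers was 4.99 to 5.87 in castrated and 4.27 to 4.84 in intact arrays, with Ptprc at background. Their median was 3.99 to 4.08 in castrated and 3.77 to 3.96 in intact arrays, and only Cd3e had values above the background. Itgam, which encodes the CD11b used to gate cells out, passed at a difference of 0.38 ± 0.08 (limma adjusted p = 0.0181) with all its values within the background, and Cd3e did not pass at 3.39 ± 0.93 (limma adjusted p = 0.0507). The part of these markers and of Hoxb13 in the calls was not tested. In sorted bulk samples, a change in the share of a kind of cell and a change in RNA per cell cannot be told apart.

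Testosterone was the second comparison, and it shares the castrated arrays with the first. Regenerated cells had 5 of the 80 members past the test against castrated cells (6.25%), where 4.98% of all genes tested passed. This share too was close to the background. Snora30, Snord123 and the shared U3 row of Rnu3b1 to Rnu3b3 were higher in regenerated cells, 3 of 80 where 1.97% of all genes were called higher. Snora7a and Snora68 were lower, 2 of 80 where 3.01% were called lower. The median difference of the members was 0.19, against -0.01 over all genes, and it was -0.01 without regenerated replicate 4. Groups did not overlap in 7 members with regenerated higher (8.75%, against 6.53% of all genes) and in 6 with regenerated lower (7.5%, against 9.51%). The count that passed was 8 without regenerated replicate 1, 3 without intact replicate 2, 2 without intact replicate 1, regenerated replicate 2 or regenerated replicate 3, and 1 without castrated replicate 1 or castrated replicate 2. Over these fits 2.71% to 4.43% of all genes passed. The count was 7 without regenerated replicate 4, where 7.06% of all genes passed. The leukocyte marker mean was 4.30 to 4.70 in regenerated arrays, against 4.99 to 5.87 in castrated arrays. The median of these markers was 3.84 to 3.91 in regenerated arrays, against 3.99 to 4.08 in castrated arrays. Cd3e was lower in regenerated than in castrated cells (-4.04 ± 0.87, limma adjusted p = 0.0253), and its part was not tested.

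Regenerated cells were also set against intact cells, which asks how far the cells had returned to the starting values. None of the 80 members passed the limma test after adjustment, where 0.0365% of all genes (11 of 30142) passed, 0.0332% higher and 0.00332% lower. Without adjustment, 28 members had a p under 0.05 (35.0%, against 10% of all genes), 26 of them higher in regenerated cells and 2 lower. Groups did not overlap in 20 members with regenerated higher (25.0%, against 6.42% of all genes) and in 1 with regenerated lower (1.25%, against 3.23%). The median difference of the members was 0.56, against 0.01 over all genes. It was 0.29 without regenerated replicate 4.

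The spliceosomal small nuclear RNAs had no member past the adjusted test in any of the 3 comparisons, yet their values in single arrays moved over a wide range. Rnu1a1, a U1 gene, was 15.81, 18.20, 17.04 and 18.76 in regenerated replicates 1 to 4, against 15.15, 14.76 and 16.47 in castrated and 14.52, 14.03 and 15.94 in intact replicates 1 to 3. Regenerated replicates 2, 3 and 4 were above every castrated and intact array, and regenerated replicate 1 was not. The difference between regenerated and intact cells was 2.62 ± 0.71 (SE; limma adjusted p = 0.269), and that between regenerated and castrated cells was 1.99 ± 0.71 (limma adjusted p = 0.154).

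Rnu2-10, a U2 gene, was 12.99, 14.67, 13.55 and 16.21 in regenerated arrays, against 13.29, 12.47 and 14.61 in castrated and 11.06, 11.62 and 11.44 in intact arrays. Both the regenerated and the castrated arrays lay entirely above the intact ones and overlapped each other. Its difference between regenerated and intact cells was 2.98 ± 0.71 (limma adjusted p = 0.255) and that between castrated and intact cells 2.09 ± 0.76 (limma adjusted p = 0.138). Rnu11, which encodes the U11 RNA of the minor spliceosome, was 10.49, 12.53, 11.55 and 14.14 in regenerated arrays, against 11.34, 11.11 and 13.29 in castrated and 9.09, 9.84 and 9.79 in intact arrays. Again the intact arrays lay below all others. Its difference between castrated and intact cells was 2.34 ± 0.84 (limma adjusted p = 0.132). Without regenerated replicate 4, whose spread enters the shared fit, Rnu11 and Rnu2-10 passed the test between castrated and intact cells.

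Rnu6, the U6 RNA of the catalytic centre, was 13.52, 15.05, 13.70 and 16.45 in regenerated arrays, against 12.33, 12.96 and 14.25 in castrated and 12.41, 12.49 and 11.89 in intact arrays. Rnu12, the U12 RNA of the minor spliceosome, was 7.07, 8.58, 6.95 and 9.04 in regenerated arrays, against 7.37, 6.52 and 7.94 in castrated and 6.39, 6.47 and 6.20 in intact arrays. In the rows used for both genes, all 4 regenerated arrays lay above all 3 intact arrays, with regenerated replicate 4 highest and replicate 2 next. A dimmer row of Rnu6 was 8.1, 9.8, 8.23 and 12.18 in regenerated arrays, against 9.41, 9.42 and 6.96 in intact arrays. In that row regenerated and intact arrays overlapped, so the rows of Rnu6 disagree on the separation. The other U1 genes, Rnu1b1, Rnu1b2 and Rnu1b6, had differences of 2.45, 2.40 and 2.52 between regenerated and intact cells. These copies are near-identical, and an unused row of Rnu1b1 has the same values as the row used for Rnu1b2, so the U1 genes cannot be told apart. Rnu5g, a U5 gene, ranged between 3.69 and 4.93 over the 10 arrays, within the background, and its difference between regenerated and intact cells was 0.17 ± 0.27 (limma adjusted p = 0.924).

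Most small nuclear RNAs moved together within an array in the regenerated and castrated groups, and arrays of these groups lay apart. The median over the 9 spliceosomal members, taken against the intact mean, was 0.98, 3.15, 2.02 and 3.78 in regenerated replicates 1 to 4, against 0.45, 0.27 and 1.78 in castrated and -0.31, 0.11 and 0.22 in intact replicates 1 to 3. Across the 14 members that are Rnu genes, Snord118 or Snord13, regenerated replicate 4 was the highest regenerated array in 12 and regenerated replicate 1 the lowest in 10. Castrated replicate 3 was the highest castrated array in 13 of the same 14, and castrated replicate 2 the lowest in 12. The intact arrays shared no such order. Intact replicates 1, 2 and 3 were the highest intact array in 1, 8 and 5 members and the lowest in 5, 3 and 6. Members that share an array share its labelling and scaling, so these counts describe arrays and are not independent observations. Without adjustment, 8 of the 9 spliceosomal members had a p under 0.05 between regenerated and intact cells, where 10% of all genes had. All 8 were higher in regenerated cells, and the exception was Rnu5g. The 8 include the U1 genes Rnu1a1, Rnu1b1, Rnu1b2 and Rnu1b6, which cannot be told apart.

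**Figure D2:**
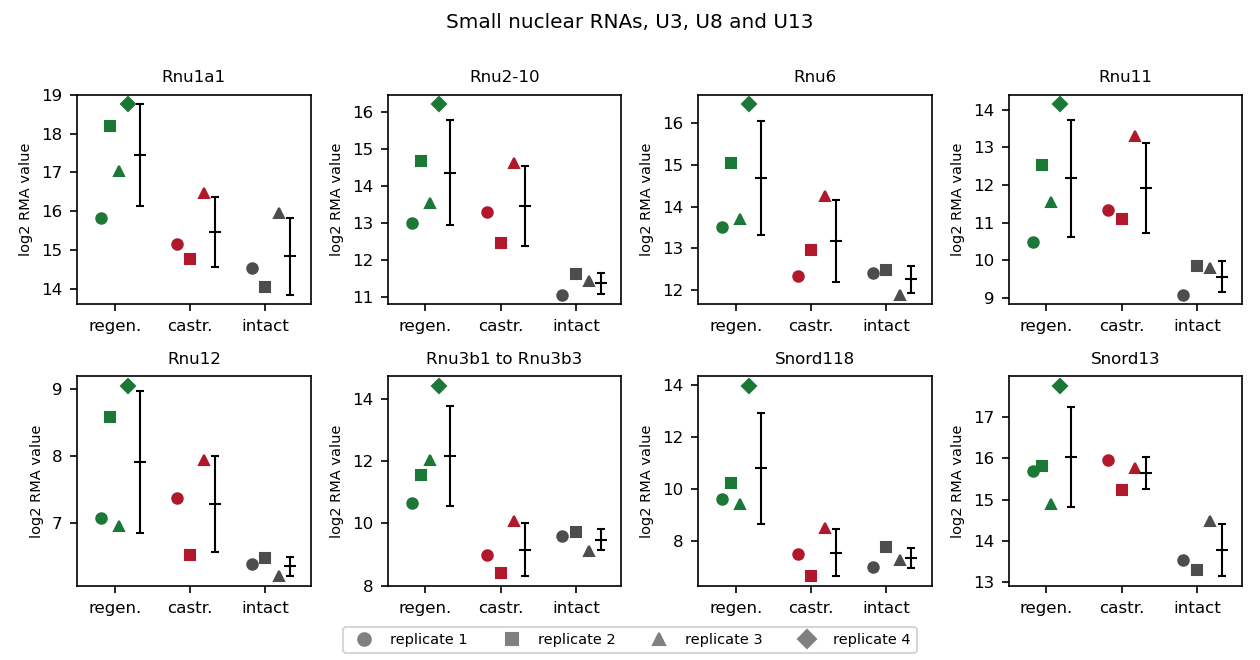
Log2 RMA values of 8 genes that code for spliceosomal RNAs or for U3, U8 (Snord118) and U13 (Snord13), with 1 point per array, the marker showing the replicate number, and a bar at the group mean ± SD (n = 4 regenerated, 3 castrated, 3 intact). Regenerated replicate 4 is the highest array in every panel, and for Snord118 it reads 13.96 where the other regenerated arrays read 9.42 to 10.22.

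U3 is the snoRNA that base-pairs with the ribosomal RNA precursor and is needed to cut out the small-subunit RNA. The row shared by Rnu3b1 to Rnu3b3 was 10.65, 11.55, 12.04 and 14.42 in regenerated arrays, against 8.98, 8.39 and 10.09 in castrated and 9.59, 9.73 and 9.10 in intact arrays. All 4 regenerated arrays lay above all castrated and all intact arrays, while castrated and intact arrays overlapped. The difference between regenerated and castrated cells was 3.01 ± 0.75 (limma adjusted p = 0.0461), and it passed in 7 of 18 alternative settings, with an adjusted p of up to 0.165, reached without castrated replicate 2. It also failed without each of intact replicates 1, 2 and 3 (adjusted p = 0.0725, 0.0731 and 0.0629), castrated replicates 1 and 3 (0.118 and 0.0593) and regenerated replicates 2 and 3 (0.0797 and 0.0932). Rnu3b4 showed the same order, with a difference of 2.92 ± 0.76 that did not pass (limma adjusted p = 0.0543). Rnu3a, at another locus, differed by 1.63 ± 0.60 (limma adjusted p = 0.166), with overlap in the row used. A second row of Rnu3a was 9.05, 9.42, 9.26 and 12.39 in regenerated arrays. Its castrated arrays were 7.56, 6.59 and 8.35 and its intact arrays 6.63, 7.06 and 6.66, all below the regenerated ones. Regenerated replicate 4 stood 3.14 above the mean of replicates 1 to 3 in that row, against 1.82 in the row used. A dimmer row of Rnu3b4 put regenerated replicate 4 only 0.04 above the mean of replicates 1 to 3, against 3.09 in the row used, so the rows of this gene disagree.

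Snord118 is U8, needed to process the RNAs of the large ribosomal subunit. It was 9.61, 10.22, 9.42 and 13.96 in regenerated arrays, against 7.49, 6.68 and 8.50 in castrated and 7.02, 7.78 and 7.28 in intact arrays. The regenerated arrays lay above all the others even without replicate 4. Its difference was 3.24 ± 0.95 between regenerated and castrated cells (limma adjusted p = 0.0837), and it passed that test without regenerated replicate 4. Between regenerated and intact cells it was 3.44 ± 0.95 (limma adjusted p = 0.269). A second row of Snord118, at 3.39 to 4.75, was within the background.

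Snord13 is U13, which directs the acetylation of the small-subunit ribosomal RNA. It was 15.69, 15.81, 14.90 and 17.76 in regenerated arrays, against 15.97, 15.22 and 15.76 in castrated and 13.52, 13.29 and 14.49 in intact arrays. Here castrated and regenerated arrays overlapped, and both lay above every intact array. The differences were 2.27 ± 0.57 between regenerated and intact cells (limma adjusted p = 0.268) and 1.88 ± 0.61 between castrated and intact cells (limma adjusted p = 0.0948, and past the threshold without regenerated replicate 4).

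U14 and U17 also act in precursor cleavage. Snord14a, a U14 gene, was 9.75, 8.23, 8.27 and 10.07 in regenerated arrays, against 7.89, 7.49 and 8.84 in castrated and 7.0, 8.57 and 8.15 in intact arrays, and all 3 groups overlapped. Snord14e, another U14 gene, was 18.27, 17.15, 16.46 and 18.84 in regenerated arrays, against 16.73, 16.82 and 18.28 in castrated and 13.78, 14.56 and 17.09 in intact arrays. Intact replicate 3 read among the castrated and regenerated arrays, and the other 2 intact arrays lay below them all. Its differences were 2.53 ± 0.79 between regenerated and intact cells (limma adjusted p = 0.302) and 2.13 ± 0.84 between castrated and intact cells (limma adjusted p = 0.176), and the second passed without intact replicate 3. The U17 genes Snora73a and Snora73b were 0.64 ± 0.26 and 0.81 ± 0.31 higher in castrated than in intact cells, without overlap and without passing (limma adjusted p = 0.179 and 0.168). Regenerated replicate 4 lay slightly below the mean of replicates 1 to 3 for both (differences of -0.17 and -0.24).

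Among the guide snoRNAs, the H/ACA box class had 4 of 18 members past the test between castrated and intact cells (22.2%, against 8.01% of all genes), all higher in castrated cells (against 4.82%). With only genes whose mean lay above the 95th percentile of the background rows, the same 4 members passed, as did 20.5% of genes. Against these brighter genes the share of the class was thus not clearly raised. Snora68, which guides pseudouridylation of the large-subunit ribosomal RNA in human cells, was 8.44, 7.79, 7.72 and 8.21 in regenerated arrays, against 8.88, 8.92 and 9.06 in castrated and 7.54, 7.47 and 7.25 in intact arrays. The castrated arrays were the 3 highest of the 10 and the intact arrays the 3 lowest. Its difference between castrated and intact cells was 1.53 ± 0.23 (limma adjusted p = 0.0026), and it passed in all 18 alternative settings. Between regenerated and castrated cells it was -0.91 ± 0.21 (limma adjusted p = 0.0343), which passed in 9 of the 18. That call was lost without intact replicate 1 or 2 (adjusted p = 0.0593 and 0.0631), without castrated replicate 1, 2 or 3 (0.0733, 0.0992 and 0.105) and without regenerated replicate 2 or 3 (0.102 and 0.0915).

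Snora31, an H/ACA guide within Tpt1, was 11.25, 10.66, 10.46 and 10.97 in regenerated arrays, against 12.31, 12.90 and 11.50 in castrated and 10.57, 10.99 and 10.08 in intact arrays. The castrated arrays lay above all others, and regenerated and intact arrays overlapped. It was 1.69 ± 0.38 higher in castrated than in intact cells (limma adjusted p = 0.0224), a call lost without intact replicate 1 or 3 (adjusted p = 0.0817 and 0.0729) or castrated replicate 1 or 2 (0.0633 and 0.081). Its difference between regenerated and castrated cells was -1.40 ± 0.36 and did not pass (limma adjusted p = 0.0512).

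Snora69, within Rpl39, was 8.40, 7.77, 7.81 and 8.74 in regenerated arrays, against 8.54, 8.96 and 8.33 in castrated and 7.16, 6.10 and 7.60 in intact arrays. Castrated and regenerated arrays overlapped, and both lay above the intact ones. The difference between castrated and intact cells was 1.66 ± 0.39 (limma adjusted p = 0.0279). It was lost without intact replicate 1 or 2 (adjusted p = 0.0764 and 0.0914) or any of castrated replicates 1 to 3 (0.0649, 0.099 and 0.0525).

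Snora7a, within the ribosomal protein gene Rpl32, was 6.08, 6.28, 6.12 and 5.29 in regenerated arrays, against 8.01, 7.15 and 7.14 in castrated and 6.03, 6.58 and 5.44 in intact arrays. Its castrated arrays lay above every other array and above the highest background row, while its regenerated arrays and its intact mean (6.02) lay within the background, where differences can be compressed. It was 1.41 ± 0.35 higher in castrated than in intact cells (limma adjusted p = 0.0354) and 1.49 lower in regenerated than in castrated cells (-1.49 ± 0.33, limma adjusted p = 0.0289). The first call was lost without intact replicates 1 or 3 (adjusted p = 0.11 and 0.106), castrated replicates 1, 2 or 3 (0.106, 0.0613 and 0.0571) or regenerated replicate 3 (0.0514), with array medians subtracted (0.0606) and with only the 2 groups in the fit (0.0502). The second was lost without intact replicate 1 (0.05), castrated replicates 1, 2 or 3 (0.0952, 0.0594 and 0.0525) or regenerated replicate 3 (0.0573).

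Snora30, an H/ACA guide within Srcap, had the widest range of values of the members. It was 12.32, 13.28, 12.89 and 16.52 in regenerated arrays, against 7.29, 7.67 and 10.16 in castrated and 12.00, 11.90 and 8.67 in intact arrays. Regenerated arrays lay above all others, and intact replicate 3 read among the castrated arrays. The difference between regenerated and castrated cells was 5.38 ± 1.14 (limma adjusted p = 0.0235). The call was lost without castrated replicate 1 or 2 (adjusted p = 0.084 and 0.0926) or regenerated replicate 2 (0.0557), and it was kept without regenerated replicate 4. Between castrated and intact cells the difference was -2.49 ± 1.22 (limma adjusted p = 0.285).

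Of the 44 C/D box members outside U3, 2 passed between castrated and intact cells (4.55%, against 8.01% of all genes) and 1 between regenerated and castrated cells (2.27%, against 4.98%). Both shares were below that of all genes. Snord72, a methylation guide within the ribosomal protein gene Rpl37, was 14.06, 13.03, 13.97 and 12.72 in regenerated arrays, against 14.30, 14.44 and 14.17 in castrated and 11.42, 12.13 and 12.44 in intact arrays. The 3 groups did not overlap at all, with castrated highest and intact lowest. It was 2.31 ± 0.39 higher in castrated than in intact cells (limma adjusted p = 0.00566) and passed in all 18 alternative settings. Between regenerated and intact cells the difference was 1.45 ± 0.36 (limma adjusted p = 0.268).

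Snord123 went the other way. It was 11.56, 11.09, 10.29 and 11.74 in regenerated arrays, against 7.32, 6.72 and 8.76 in castrated and 9.48, 9.68 and 10.50 in intact arrays. The castrated arrays were the 3 lowest of the 10, and regenerated and intact arrays overlapped. Regenerated cells were 3.57 ± 0.50 above castrated cells (limma adjusted p = 0.0028), a call kept in all 18 alternative settings. Castrated cells lay 2.28 below intact cells (-2.28 ± 0.54, limma adjusted p = 0.0268), a call lost without any 1 of intact replicates 1 to 3 (adjusted p = 0.0657, 0.0727 and 0.0854) or castrated replicates 1 and 2 (0.0809 and 0.0964).

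**Figure D3:**
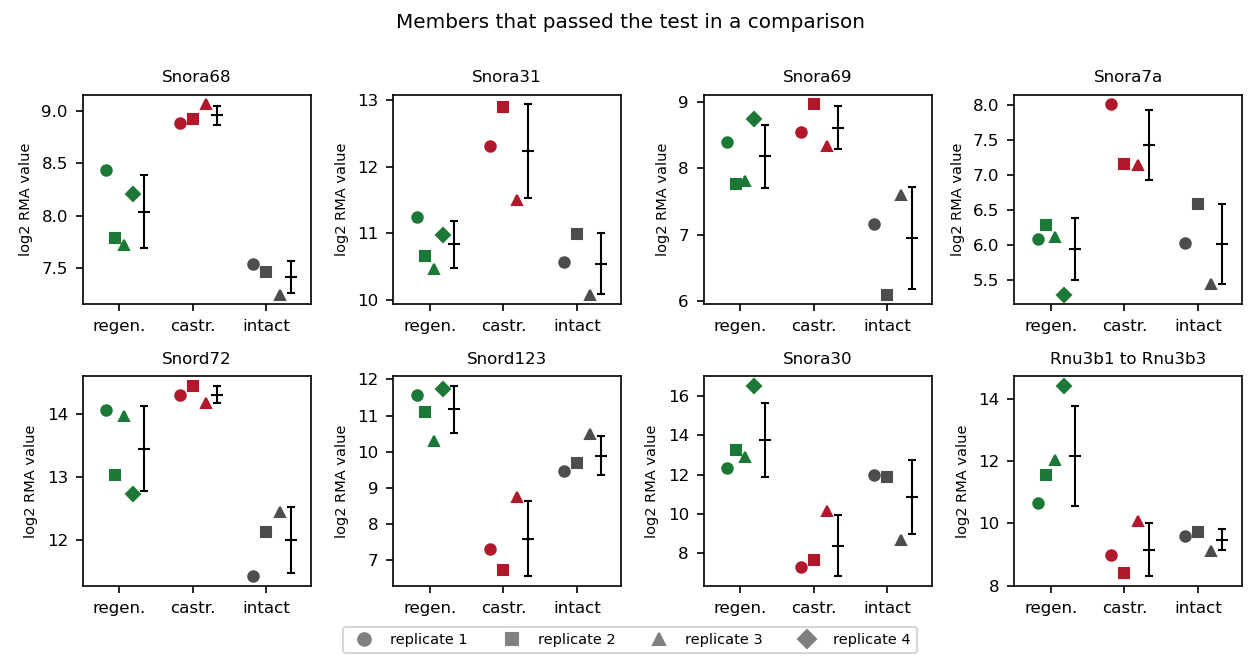
Log2 RMA values of the 8 distinct members that passed the limma test in a comparison, with 1 point per array, the marker showing the replicate number, and a bar at the group mean ± SD (n = 4 regenerated, 3 castrated, 3 intact). Castrated arrays are highest for Snora68, Snora31, Snora7a and Snord72 and lowest for Snord123, and regenerated replicate 4 is the highest array for Snora30 (16.52) and for the shared Rnu3b1 row (14.42).

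Small Cajal body RNAs guide the modification of spliceosomal RNAs. None of the 6 passed in any comparison. Scarna17 was 10.15, 9.88, 8.78 and 13.04 in regenerated arrays, against 9.98, 9.93 and 10.16 in castrated and 9.73, 9.20 and 9.66 in intact arrays. Regenerated replicate 4 alone stood above the other 9 arrays, which lay between 8.78 and 10.16. Its difference between castrated and intact cells, 0.50 ± 0.82, was the widest of the class, followed by Scarna9 at 0.29 ± 0.34. Scarna2, a guide for U2, was 7.27, 7.58, 6.68 and 7.36 in regenerated arrays, against 6.67, 6.40 and 6.91 in castrated and 6.71, 6.44 and 6.72 in intact arrays, with overlap in every pair of groups. Scarna10 was 3.40 to 5.58 over the 10 arrays and within the background.

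Regenerated replicate 4 was then set against the mean of regenerated replicates 1 to 3, which 1 array allows only as a description. It lay more than 1 log2 above that mean in 37 of the 80 members (46.2%), against 3.03% of all genes tested, and more than 1 log2 below it in 1 member (1.25%), against 3.95%. The median difference was 0.75 over the members, against -0.0 over all genes. It lay above each of replicates 1 to 3 in 49 members (61.3%, against 30.9% of all genes), below each in 6 (where 32.2% of all genes were), and was the highest of all 10 arrays in 37 (46.2%, against 15.2%). The same difference taken for each of the other regenerated arrays against the remaining 3 had a median of -0.22 for replicate 1, -0.09 for replicate 2 and -0.49 for replicate 3.

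The classes are given in turn. The median difference of replicate 4 was 1.68 over the 9 spliceosomal RNAs, with 8 of them above 1 log2, and 3.01 over the 3 U3 forms, all 3 above 1. It was 0.73 over the other C/D box members (18 of 44 above 1), 0.63 over the H/ACA box members (6 of 18) and 0.21 over the Cajal body RNAs (2 of 6). The members in which replicate 4 lay furthest above included guides as well as spliceosomal RNAs: Snord118 by 4.22, Snord98 by 3.77, Snora30 by 3.69, Scarna17 by 3.44, Snord90 by 3.35 and Rnu3b4 by 3.09. Rnu3b1 to Rnu3b3, Rnu11, Snord89 and Rnu2-10 followed at 3.01, 2.62, 2.61 and 2.48. Some of these were unsteady among the other arrays too. Snord98 was 8.94, 4.57, 7.47 and 10.76 in regenerated replicates 1 to 4, against 7.37, 8.96 and 8.58 in castrated arrays. Snord90 was 7.30, 6.61, 8.59 and 10.85 in regenerated arrays, against 8.90, 11.89 and 5.80 in castrated arrays, so castrated replicate 2 read above regenerated replicate 4.

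The 6 members in which replicate 4 lay below each of replicates 1 to 3 were Snord87 (-1.89), Snord49a (-0.98), Snord72 (-0.97), Snora7a (-0.87), Snord8 (-0.79) and Snord23 (-0.53). Snord87 was 4.76 in regenerated replicate 4, against 5.57, 6.82 and 7.56 in replicates 1 to 3. In castrated arrays it was 7.43, 8.47 and 6.64, and in intact arrays 5.94, 5.75 and 5.36. Replicate 4 was thus the lowest of the 10 arrays for this gene.

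The 49 members with a mean above the highest background row had a median of 1.22 in replicate 4 against replicates 1 to 3, and the 31 others had 0.23. All 9247 genes tested with such a mean had a median of -0.3. Of these genes 7.19% lay more than 1 log2 above and 11.7% more than 1 log2 below, against 57.1% and 2.04% of the 49 members. Other genes that RefSeq annotates as snRNA had a median of 0.47 over 900 genes, and 2.27 over the 319 with a mean above the background, where 84.3% lay more than 1 log2 above. Mammalian genomes hold many near-identical copies of small nuclear RNA genes, so such rows can read the same RNAs as the members and are not separate evidence. The other 893 RefSeq snoRNA genes had a median of 0.08, or 0.34 over the 94 above the background. RefSeq miRNA genes (600) had 0.06, lncRNA genes (3169) 0.05 and protein-coding genes (19046) -0.02.

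**Figure D4:**
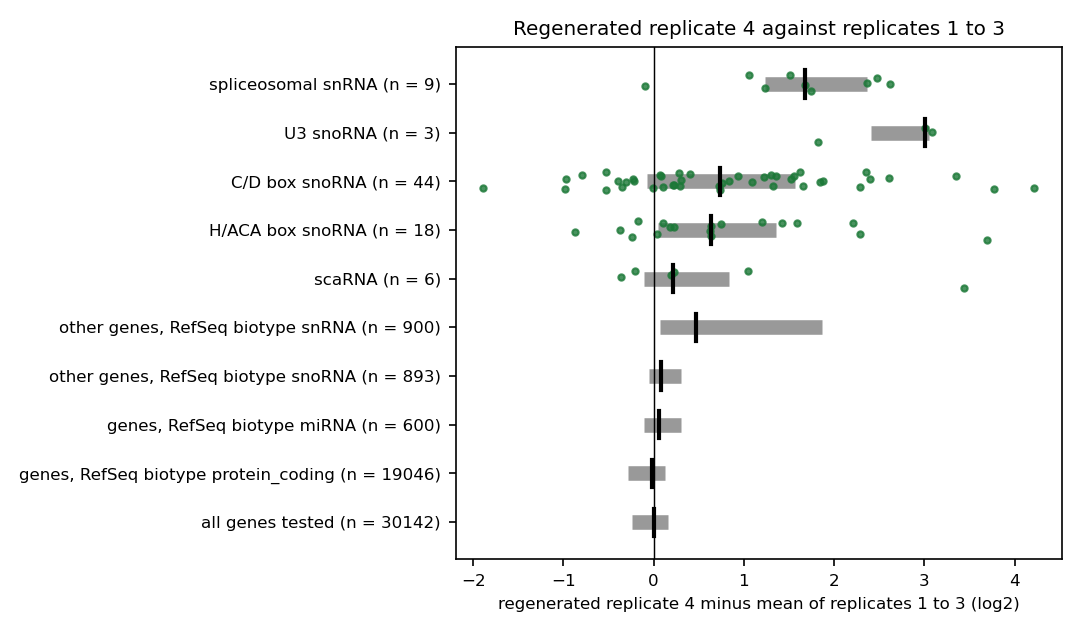
Difference between regenerated replicate 4 and the mean of regenerated replicates 1 to 3 (log2) in each class of members and in other RefSeq classes, with a point per member, a grey bar over the middle 50% of genes and a black line at the median. The U3 forms (median 3.01) and spliceosomal RNAs (1.68) sit to the right of the protein-coding genes (-0.02).

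RefSeq places 69 of the 80 members within the span of another gene and 11 in none. A row within an intron can read the mature small RNA and unspliced host RNA alike. Replicate 4 stood 2.29 above replicates 1 to 3 in the median over the 11 members with no spanning gene (10 of them above 1 log2), against 0.63 over the 69 with one (27 above 1). Most of the 11 are Rnu genes, Snord118 or Snord13, so location and class cannot be told apart here. The median was 2.06 over the 14 members that are Rnu genes, Snord118 or Snord13, and 0.51 over the other 66. For 41 members the spanning gene was itself tested, which gave 45 pairs with 41 spanning genes. The median difference of replicate 4 was 0.76 for those members and -0.02 for the spanning genes. It exceeded 1 log2 in 20 of the members and in 1 of the spanning genes, Ccar1, the cell cycle and apoptosis regulator that spans Snord98 (1.22 against 3.77 for Snord98). Srcap, the chromatin remodeller that spans Snora30, differed by 0.01 against 3.69 for Snora30.

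**Figure D5:**
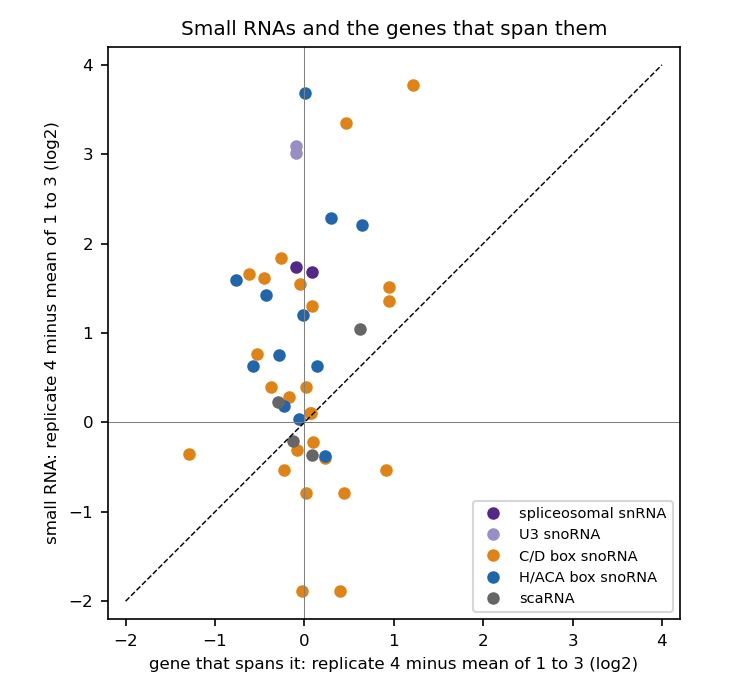
Difference between regenerated replicate 4 and the mean of regenerated replicates 1 to 3 (log2) for each small RNA (vertical axis) against the gene that spans it (horizontal axis), with a point for each of the 45 pairs coloured by class and a dashed line where both are equal. Spanning genes lie between -1.29 and 1.22, and the small RNA lies above the line in 33 pairs.

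The spanning genes of called members moved with their snoRNA in some pairs and not in others. Snhg18, a non-coding gene that spans Snord123, was 8.29, 8.37, 8.96 and 8.01 in regenerated arrays, against 6.26, 6.23 and 6.38 in castrated and 6.99, 7.45 and 8.05 in intact arrays. It passed in both comparisons in the direction of Snord123, at -1.21 ± 0.30 in castrated against intact cells (limma adjusted p = 0.0331) and 2.12 ± 0.28 in regenerated against castrated cells (limma adjusted p = 0.00193). Rpl39, which spans Snora69, also passed, 0.87 ± 0.20 higher in castrated than in intact cells (limma adjusted p = 0.0255). Tpt1, which spans Snora31, differed by 0.06 ± 0.16 in that comparison (limma adjusted p = 0.881), and Srcap differed by -0.17 ± 0.26 between regenerated and castrated cells (limma adjusted p = 0.794), where Snora30 differed by 5.38. Nop58, which encodes a core protein of C/D box particles, spans members that did not pass. It was 1.82 ± 0.49 higher in castrated than in intact cells (limma adjusted p = 0.0489). Snord11 and Snord70 within it differed by 0.21 ± 0.37 and -0.09 ± 0.98. The mean of Snord11 (6.3) lay within the background. The confidence interval of Snord70 (-2.26 to 2.09) held the difference of Nop58, so these pairs do not show that gene and snoRNA moved apart. Snhg6, which spans Snord87, was 1.11 ± 0.15 higher in castrated cells (limma adjusted p = 0.00185), with Snord87 at 1.83 ± 0.66 (limma adjusted p = 0.135).

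The RNAs of several proteins that bind these small RNAs were higher after castration. The arrays read RNA, and protein was not measured. The Sm and LSm family includes the proteins that form the rings on spliceosomal RNAs. Of 13 of its genes measured, 6 were higher in castrated than in intact cells and none lower, where 4.82% of all genes were higher. Snrpg, which encodes a protein of the Sm ring, was 15.75, 15.84, 15.85 and 15.38 in regenerated arrays, against 16.91, 16.91 and 17.26 in castrated and 15.07, 15.35 and 15.37 in intact arrays. Its difference between castrated and intact cells was 1.76 ± 0.19 (limma adjusted p = 0.000458). Lsm3, Lsm6 and Lsm7 were higher by 1.40, 1.38 and 1.23. Against castrated cells, 3 of the 13 were lower in regenerated cells, where 3.01% of all genes were lower: Lsm3 (-1.35), Snrpg (-1.32) and Lsm2 (-0.80). Of 10 genes for factors that assemble snoRNA particles, 5 were higher in castrated than in intact cells, with Znhit6, Ruvbl1, Pih1d1 and Shq1 at 1.27, 1.26, 1.25 and 1.22. None of the 10 passed between regenerated and castrated cells. Of 2 genes for core C/D box proteins measured, Nop58 was called and Fbl, which encodes the methyltransferase, was not (0.60 ± 0.27, limma adjusted p = 0.24). Of the 4 genes for core H/ACA proteins, Nhp2 was higher in castrated cells (1.47 ± 0.35, limma adjusted p = 0.0289).

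Other groups showed fewer or no calls. None of the genes for 19 proteins specific to single spliceosomal particles, 21 factors of small nuclear RNA transcription and end formation or 13 particle assembly factors passed in any comparison. Without adjustment, 5, 4 and 4 of them had a p under 0.05 between castrated and intact cells, 3, 2 and 2 between regenerated and castrated cells, and 1, 2 and 0 between regenerated and intact cells. Of all genes, 20.7%, 18.9% and 10% had such a p in these comparisons. Of 8 non-coding snoRNA hosts, 2 were higher in castrated than in intact cells (Snhg6 and Snhg17) and 1 lower (Snhg18), where 4.82% of all genes were higher and 3.19% lower. Of 15 coding genes on a list of known snoRNA hosts, 3 were higher (Nop58, Rpl12 and Rpsa), and these with Ncl were lower in regenerated than in castrated cells, where 3.01% of all genes were lower. That list does not hold every gene that spans a member: Rpl39, Nop53 and Snx5, which span Snora69, Snord23 and Snord17, are outside it and were also higher in castrated than in intact cells (0.87, 1.42 and 1.31). No gene of these lists passed between regenerated and intact cells. In regenerated replicate 4 the median difference of each of these 9 lists against replicates 1 to 3 lay between -0.66 and 0.27, where the spliceosomal RNAs had 1.68.

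Other small and nuclear non-coding RNAs, outside the rule, were also read. Over 11 of them the median difference of regenerated replicate 4 against replicates 1 to 3 was -0.33, with a range of -1.26 to 0.43. Rn7sk, which holds back the elongation kinase of RNA polymerase II, lay between 19.35 and 19.81 in all 10 arrays, near the highest value in the table (19.93). Rn7s1 and Rn7s2, which share 1 set of values and encode the RNA of the signal recognition particle, were 19.60, 19.52, 19.19 and 19.44 in regenerated arrays, against 18.31, 18.29 and 18.72 in castrated and 19.63, 19.55 and 19.60 in intact arrays. These values are near the top of the table, where differences can be compressed. They were 1.15 lower in castrated than in intact cells (-1.15 ± 0.14, limma adjusted p = 0.00121). They were 1.0 ± 0.14 higher in regenerated than in castrated cells (limma adjusted p = 0.00229). The Y RNA Rny1 was lower in castrated than in intact cells (-2.0 ± 0.47, limma adjusted p = 0.0271), and lay 1.14 below replicates 1 to 3 in regenerated replicate 4 (-1.14). The nuclear RNAs Malat1 (-1.22) and Neat1 (-1.25) were lower in castrated than in intact cells as well.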

How the data were processed

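The deposited table holds log2 values of 72688 rows on 10 arrays, which the authors computed by the RMA method. The submitters' processing notes name Affymetrix Expression Console as the program; a version and a genome build are not given in the sources used here. The method corrects background, quantile-normalises the arrays and summarises probes, so an overall difference in RNA content between samples is removed before these values. Rows with 1 gene symbol (30604) were kept, each gene was read from its row with the highest mean, and symbols were matched to RefSeq (GRCm38.p6), where all 82 members were found. RefSeq spans were used for overlap only, without strand.

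The 3 groups were fitted together with limma 3.58.1 in R 4.3.3 (lmFit, eBayes with trend, 7 residual degrees of freedom), two-sided, with Benjamini-Hochberg adjustment over 30142 genes, and a gene was called at an adjusted p under 0.05. The procedure was tested on simulated data. Members and gene lists were chosen with earlier results of these data known, so counts over them are descriptions. Genes named are the called members, the most changed members of each class, the members in which regenerated replicate 4 lay furthest outside replicates 1 to 3, all Rnu genes and a fixed set of named snoRNAs, with the most changed genes of each protein list and the spanning genes of named members. Arrays of the same replicate number did not deviate together (correlations of -0.16 to 0.26), so the numbers were not used as pairs. Alternatives left out each array, averaged rows, rescaled arrays, dropped dim genes, weighted arrays, dropped the trend, added a replicate block or used only the groups compared. The number of arrays limits the precision. Sequences of the members were not used here.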

Additional observations from a re-analysis of the deposited data

Results flagged for a closer look

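In the group of 4 regenerated arrays, 1 array stood far from the other 3, relative to the range of the group, in 3 of the 80 distinct members; chance gives about 1 in 20 groups. Snora62, an H/ACA guide within Rpsa, was 5.31 in regenerated replicate 4, against 4.64 to 4.71 in replicates 1 to 3. Snord23, a C/D box guide within Nop53, was 5.54 in regenerated replicate 4, against 6.01 to 6.10 in replicates 1 to 3. Snora16a was 3.09 in regenerated replicate 1, against 3.46 to 3.51 in the others. All 3 genes were within the background. Snord118 and the other members in which replicate 4 lay furthest above replicates 1 to 3 did not meet this criterion. Groups of 3 arrays were not tested.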

How the results depend on the processing

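No called member changed direction under any alternative, and the median member difference between regenerated and castrated cells (0.19) turned to -0.01 without regenerated replicate 4. The count of members past the test between castrated and intact cells (6) was 2 to 12 with 1 array left out, 14 with array weights and 12 with only the 2 groups in the fit, while 3.38% to 10.9%, 14.1% and 8.65% of all genes passed. Without dim genes the count was 7 of 67 members, while 20.5% of the genes kept passed. Between regenerated and castrated cells (5) it was 1 to 8 with 1 array left out, 10 of 67 members without dim genes, 9 with array weights and 3 with only the 2 groups, while 2.71% to 7.06%, 14%, 7.42% and 2.73% of all genes passed. Between regenerated and intact cells it was 0 in every setting. The median member difference between castrated and intact cells was 0.22 to 0.39 with 1 array left out, 0.53 without dim genes, 0.16 with array medians subtracted and 0.18 with quantile normalization; between regenerated and castrated cells it was -0.01 to 0.35, and between regenerated and intact cells 0.29 to 0.64, with 1 array left out. The median for regenerated replicate 4 was 1.09 without dim genes, and that of replicates 1, 2 and 3 against the rest was -0.22, -0.09 and -0.49. The causes were not tested.

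With the replicate number as a block, which drops regenerated replicate 4 from the contrasts because no other array shares its number, 12 members passed between castrated and intact cells, 6 between regenerated and castrated cells and 0 between regenerated and intact cells, against 9.01%, 5.43% and 0.0133% of all genes. The 6 hold Rnu3b1 and Snord123 of the 5 calls above; Snora30 (adjusted p = 0.0619), Snora68 (0.0508) and Snora7a (0.0534) were lost under the block. Of the 11 calls, 3 held in all 18 alternatives: Snord72 and Snora68 in castrated against intact cells and Snord123 in regenerated against castrated cells. Dim members have signals near background, where changes are compressed.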
